A study of Mus musculus with 7 samples.

Results

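The genes described here encode high-voltage-activated calcium channels and voltage-gated sodium channels. Their RNA was measured in ribosome pull-downs aimed at kisspeptin cells in the anteroventral periventricular nucleus (AVPV) of the female mouse. They were taken by gene symbol from a table of 55384 genes, and 37 genes matched. They fall into 6 classes: 7 pore genes of high-voltage calcium channels (Cacna1a to Cacna1f and Cacna1s), 4 alpha2delta genes (Cacna2d1 to Cacna2d4), 4 calcium channel beta genes (Cacnb1 to Cacnb4), 8 gamma genes (Cacng1 to Cacng8), 10 sodium channel pore genes and 4 sodium channel beta genes. The T-type pore genes Cacna1g, Cacna1h and Cacna1i were left out.

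Ribosome-bound RNA was sequenced in 7 libraries from Kiss1Cre+/Rpl22HA+/+ females on a C57BL/6 background, 3 from estradiol-treated mice (E2) and 4 from ovariectomized mice without estradiol (GDX). All 7 shared the Kiss1-driven Cre and the HA tag on the ribosomal protein Rpl22, so the tag marked any cell in which that Cre had been active, and tagged ribosomes were pulled down from AVPV micropunches. Each library was a pool of 4 brains, so p-values measure the spread between pools and not between animals. The labels do not state whether the E2 mice were also ovariectomized, nor the age of the mice or the dose and duration of estradiol.

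Sodium channels open within the first moments of a depolarization and carry the rising phase of the action potential, and their beta subunits set gating and placement in the membrane. High-voltage calcium channels open during the spike. P/Q-, N- and R-type channels trigger transmitter and peptide release, and L-type channels feed calcium to the cell body and to gene expression. Alpha2delta subunits carry the pore to the membrane, and some of them bind gabapentin. Beta subunits bind the pore from the cytoplasm. Most gamma genes, though named as calcium channel subunits, encode regulators of AMPA glutamate receptors known as TARPs. AVPV kisspeptin neurons drive the preovulatory surge of gonadotropin-releasing hormone in rodents and fire in bursts.

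The libraries held 30929883 to 33438199 counts in E2 and 29207544 to 36213127 in GDX, and log2 levels correlated across genes at r of 0.964 to 0.976 for pairs of the same group and, overlapping with that, 0.954 to 0.97 for pairs of E2 with GDX, where genes are not independent replicates. All 6 markers of AVPV kisspeptin cells were detected and 4 of them rose in E2, among them Kiss1 (415 CPM in E2, 66.5 CPM in GDX, adjusted p = 0.0158) and Pgr. Esr1 had a lower mean in E2 (194 CPM in E2, 255 CPM in GDX, adjusted p = 0.09) and did not pass. Slc32a1 (402 CPM in E2, 382 CPM in GDX, adjusted p = 0.731) did not pass either. None of the 4 pan-neuronal markers passed the test. Markers of other cell types were also detected, and none of the glial, endothelial or ependymal markers was called or at 0 in any library. The 5 astrocyte markers summed to 480 to 564 CPM in E2 and 698 to 2557 CPM in GDX. The 4 endothelial markers summed to 64.3 to 111.2 CPM in E2 and 111.4 to 308 CPM in GDX. As sums both were without overlap, the endothelial sums narrowly. Taken singly, the astrocyte markers Aldh1l1 and Slc1a3 and the endothelial markers Pecam1 and Kdr overlapped between the groups. Gfap alone averaged 182 CPM in E2 and 939 CPM in GDX. Sums overlapped for oligodendrocyte markers (2344 to 2833 CPM in E2, 2537 to 5318 CPM in GDX), their precursors (117 to 141 CPM in E2, 122 to 189 CPM in GDX), microglia (33.0 to 44.8 CPM in E2, 32.0 to 43.0 CPM in GDX) and ependyma (17.7 to 38.1 CPM in E2, 35.1 to 70.8 CPM in GDX). The highest astrocyte, endothelial and ependymal sums were in GDX replicate 4. Gnrh1 stood at 0.986 to 1.91 CPM in E2 and 0.698 to 1.79 CPM in GDX, and of the arcuate kisspeptin markers Tac2 was not called and Pdyn fell (109 CPM in E2, 174 CPM in GDX, adjusted p = 0.0262). In such bulk samples fewer cells of a type and less RNA per cell cannot be told apart.

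E2 was compared with GDX for each channel gene, and 4 of them passed the test. Cacna2d1 and Cacng2 were among those that rose, and Cacng5 fell. Of the 37 genes 33 had counts high enough for the test, so 3 rose, 1 fell and 29 did not pass, at an adjusted p under 0.05 in edgeR's quasi-likelihood test over 18282 genes. Across all tested genes 3.88% were called, 2.55% higher and 1.33% lower in E2, and among the 10641 genes averaging 10 CPM or more 5.5% were called, where the channel genes had 4 calls in 27. With library sizes alone as the scaling, the split of calls was 1 higher and 2 lower among the channel genes and 385 higher and 352 lower among all genes, against 467 and 243. A total of 10 of the 33 had an unadjusted p under 0.05, against 16.8% of all tested genes, and 9 of the 33 (27.3%) had groups that did not overlap, against 16.5%. No tested channel gene had a 2-fold difference, and the 26 genes over 10 CPM in every library had standard errors of 0.06 to 0.15 on the log2 scale. The median log2 fold change was 0.055 over the 33 genes and 0.0040 over all tested genes, and 21 of the 33 had a positive value.

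The starts of Cacna2d1, Cacng5 and Cacng2 are shown because estradiol acts through receptors that bind DNA. RefSeq's GRCm38.p6 table gave sequences from 250 bases before to 50 after a start for 29 of the 37 genes, 40 starts in all. The palindromic estrogen response element, GGTCA and TGACC set 3 bases apart, was searched on both strands and was in none of these 40. It was in 0.07% of all 32851 starts, so rare that its absence from 40 carries little information. Its half-site GGTCA, which lies within that motif, was in 12 of the 40 (30%) and in 40.5% of all, and it was in none of the printed sequences. The GC box GGGCGG, searched on both strands, was in 16 of the 40 (40%) and in 35.7% of all. The sequences run 5′ to 3′ on the gene's strand, with GC boxes in capitals, 7 for Cacna2d1, some of them overlapping, 2 for Cacng5, shown at the outer of its 2 starts, and none for Cacng2.
Cacna2d1, chr5:15934441-15934740, plus strand: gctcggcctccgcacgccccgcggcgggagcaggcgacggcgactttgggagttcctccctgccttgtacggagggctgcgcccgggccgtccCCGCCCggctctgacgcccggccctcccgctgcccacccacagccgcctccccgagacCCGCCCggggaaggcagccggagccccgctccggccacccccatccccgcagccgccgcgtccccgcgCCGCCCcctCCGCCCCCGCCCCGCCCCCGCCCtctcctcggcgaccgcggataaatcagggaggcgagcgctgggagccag
Cacng5, chr11:107915006-107915305, minus strand: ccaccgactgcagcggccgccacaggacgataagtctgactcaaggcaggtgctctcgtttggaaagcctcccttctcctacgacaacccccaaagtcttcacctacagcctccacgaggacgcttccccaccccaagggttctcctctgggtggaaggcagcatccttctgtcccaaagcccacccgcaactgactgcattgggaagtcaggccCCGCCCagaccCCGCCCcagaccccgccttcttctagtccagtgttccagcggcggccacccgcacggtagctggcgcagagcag
Cacng2, chr15:78119231-78119530, minus strand: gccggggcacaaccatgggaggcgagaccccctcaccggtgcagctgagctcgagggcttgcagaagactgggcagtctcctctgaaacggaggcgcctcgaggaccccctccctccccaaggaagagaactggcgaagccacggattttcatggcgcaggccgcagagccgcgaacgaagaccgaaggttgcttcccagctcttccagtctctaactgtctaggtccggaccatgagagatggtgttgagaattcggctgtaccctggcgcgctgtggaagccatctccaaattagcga
Such matches describe letters in these windows and are not sites of binding.

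Levels between genes are given per length, as CPM per kb of merged exon. The sodium beta genes had the highest summed level, 132 ± 6.68 in E2 and 130.2 ± 5.69 in GDX, followed by the gamma genes with 96.3 ± 4.57 in E2 and 92.7 ± 8.002 in GDX (SD, n = 3 and n = 4). The calcium beta genes summed to 57.0 ± 3.15 in E2 and 62.8 ± 5.78 in GDX, and the alpha2delta genes to 47.2 ± 2.33 in E2 and 48.9 ± 2.41 in GDX. The pore genes were lowest, with 40.8 ± 3.66 in E2 and 36.4 ± 4.06 in GDX for sodium channels and 36.3 ± 2.10 in E2 and 33.8 ± 2.22 in GDX for calcium channels. In each of the 6 classes the summed levels of the groups overlapped.

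**Figure D1:**
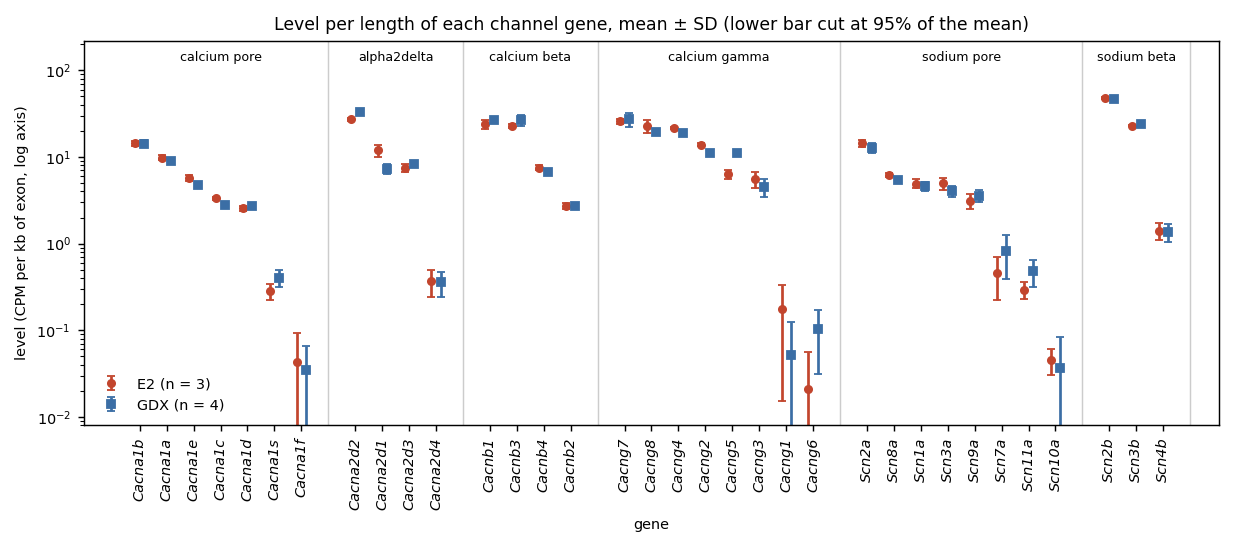
Mean level of each channel gene in CPM per kb of merged exon on a log axis, with the SD between libraries, for E2 (circles, n = 3) and GDX (squares, n = 4), ordered by level within each class. The plot shows 34 of the 37 genes and leaves out Scn4a, listed at 0 in all libraries. Scn2b stands highest among those drawn, and Cacna1f, Cacng1, Cacng6 and Scn10a lie lowest.

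The 4 genes that did not reach the test were Cacna1f (0.0279 to 0.892 CPM), a retinal L-type pore gene, Cacng1 (0 to 0.429 CPM) and Cacng6 (0 to 0.369 CPM), both known from muscle, and Scn4a, the skeletal muscle sodium channel gene. Scn4a was listed at 0 in every library. A count of 0 allows up to 0.0818 to 0.101 CPM in these libraries, taken as 3 counts, which covers counting error only.

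Among calcium channel pores, Cacna1b, which encodes the N-type pore, led with 14.4 ± 0.9996 CPM per kb in E2 and 14.3 ± 1.34 in GDX. It had 152, 133 and 144 CPM in the E2 libraries, against 130, 160.4, 135 and 142 CPM in the GDX libraries. The groups overlapped, and the difference did not pass, at 0.01 ± 0.09 on the log2 scale (adjusted p = 0.97). Cacna1a, the P/Q-type pore gene, followed with 9.87 CPM per kb in E2 and 8.95 in GDX, and Cacna1e, the R-type pore gene, with 5.78 in E2 and 4.72 in GDX. The L-type pore genes Cacna1c (3.36 in E2, 2.76 in GDX) and Cacna1d (2.57 in E2, 2.69 in GDX) were lower, and Cacna1s, the muscle L-type pore gene, had 0.285 in E2 and 0.405 in GDX, with 16.3% of its 50-base stretches shared with the antisense gene Gm37759. Cacna1b and Cacna1a together made up most of the pore RNA by merged exon length, with shares of 39.6% and 27.2% in E2 and 42.1% and 26.4% in GDX.

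No calcium channel pore gene was called, and the closest were Cacna1e and Cacna1c. Cacna1e had 153, 132 and 153 CPM in the E2 libraries, against 118, 119, 116 and 124 CPM in the GDX libraries. Every E2 library was above every GDX library, with a log2 fold change of 0.29 ± 0.08 (adjusted p = 0.0572), and the gene passed without E2 replicate 2 (0.0411) or GDX replicate 4 (0.0338), in a range of 0.0151 to 0.303 over the alternatives. Cacna1c had 73.9, 68.5 and 71.0 CPM in the E2 libraries, against 58.2, 62.5, 53.7 and 59.5 CPM in the GDX libraries. These groups did not overlap either, and the log2 fold change was 0.28 ± 0.08 (adjusted p = 0.0899). Cacna1d, the other neuronal L-type pore gene, had 32.4 ± 2.24 CPM in E2 and 34.0 ± 2.29 CPM in GDX, with overlapping groups. It shares 589 bp of exon with Chdh on the opposite strand (3.53 CPM in E2, 4.39 CPM in GDX), and the libraries carry no strand information.

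In the alpha2delta class Cacna2d1 rose, and Cacna2d2, the leading gene of the class, had lower values in all E2 libraries and did not pass the test. Cacna2d1 (ENSMUSG00000040118, chromosome 5, 15934691 to 16374511, GRCm38) encodes the alpha2delta subunit best known as the gabapentin target in pain pathways. Its levels were 175, 134 and 135 CPM in the E2 libraries, against 80.7, 94.4, 81.4 and 106 CPM in the GDX libraries. E2 replicate 1 was the highest, GDX replicate 4 was the highest of its group, and the groups did not overlap. The mean was 148 ± 23.3 CPM in E2 and 90.8 ± 12.2 CPM in GDX (SD, n = 3 and n = 4), a 1.63-fold rise with a log2 fold change of 0.70 ± 0.12 (adjusted p = 0.00786). A non-neuronal marker score, the mean log2 level of the glial and endothelial markers, was also used as a covariate. The log2 fold change was then 0.67 ± 0.19 and the call was lost (adjusted p = 0.168). The score was 5.21 to 5.48 in E2 and 5.48 to 6.35 in GDX, so this fit can hardly tell it apart from hormone status. Under the other 12 alternatives the adjusted p was at most 0.0345. The astrocyte and endothelial sums were lower in E2, and their part in the result was otherwise not tested.

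Cacna2d2 had 223, 208 and 222 CPM in the E2 libraries, against 263, 276, 244 and 263 CPM in the GDX libraries. Its log2 fold change was −0.26 ± 0.07 (adjusted p = 0.0572), and it passed without GDX replicate 3 (0.0262), in a range of 0.00789 to 0.3996 over the alternatives. Per library, the ratio of Cacna2d1 to Cacna2d2 counts was 0.784, 0.643 and 0.607 in E2, against 0.306, 0.342, 0.333 and 0.405 in GDX, a measure that no scaling factor enters. It averaged 1.95 times as high in E2 as in GDX, and it combines the opposite differences of these genes given above rather than adding a separate result. Per length, Cacna2d1 made up 25.1% ± 3.04 of the class in E2 and 14.9% ± 1.55 in GDX, and Cacna2d2 made up 58.1% ± 0.967 in E2 and 67.4% ± 1.13 in GDX. Cacna2d3 had 65.7 ± 7.17 CPM in E2 and 72.1 ± 0.933 CPM in GDX, and Cacna2d4, a gene of retinal photoreceptors, had 3.52 ± 1.21 CPM in E2 and 3.39 ± 1.10 CPM in GDX. Neither passed, and the summed level of the class overlapped between the groups.

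**Figure D2:**
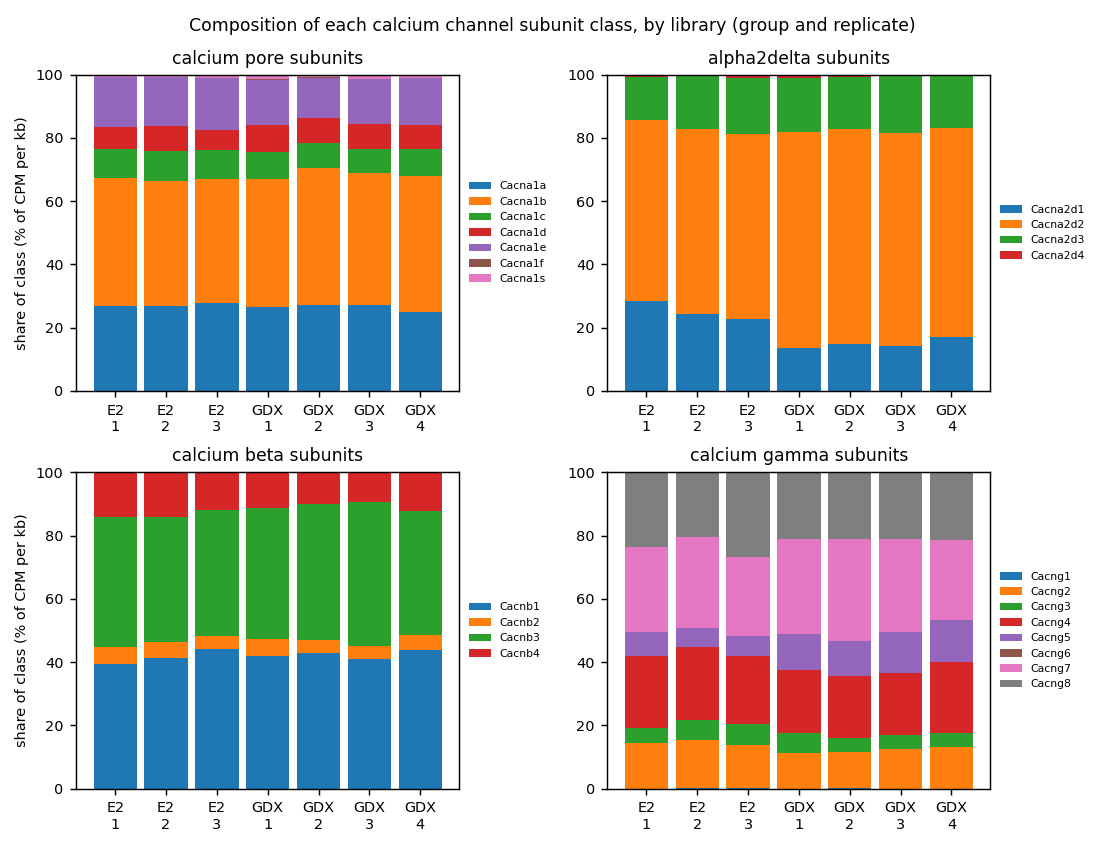
Share of each gene in its class, in percent of CPM per kb of merged exon, for every library (E2 replicates 1 to 3, then GDX replicates 1 to 4). The plot covers the 4 calcium channel classes. The Cacna2d1 segment takes 22.7% to 28.6% of the alpha2delta class in E2 and 13.4% to 17.1% in GDX, and the Cacng5 segment 5.76% to 7.40% of the gamma class in E2 and 10.9% to 13.3% in GDX.

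Of the calcium channel beta genes none was called. Cacnb1 and Cacnb3 stood level per length, with 23.8 ± 2.65 and 22.9 ± 1.003 CPM per kb in E2 and 26.6 ± 2.17 and 26.7 ± 3.97 in GDX. Cacnb1 had 96.2, 106 and 120 CPM in the E2 libraries, against 112, 132, 125 and 113 CPM in the GDX libraries. Its groups overlapped, with a log2 fold change of −0.17 ± 0.09 (adjusted p = 0.423). Cacnb4, mutated in the lethargic mouse with ataxia and seizures, had 67.7, 72.1 and 63.4 CPM in the E2 libraries, against 59.9, 60.4, 56.9 and 61.9 CPM in the GDX libraries. These groups did not overlap, but the test was not passed, with a log2 fold change of 0.18 ± 0.08 at an adjusted p of 0.285. Cacnb4 shares 1433 bp of exon with A430018G15Rik on the opposite strand (1.24 CPM in E2, 1.66 CPM in GDX). Cacnb2, the main beta gene of the heart, had 36.3 ± 3.11 CPM in E2 and 36.3 ± 2.52 CPM in GDX.

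The gamma class held changes in both directions. Cacng5 fell and Cacng2 rose, and both encode TARPs: Cacng2 encodes stargazin, a type I TARP that brings AMPA receptors to the synapse, and Cacng5 a type II TARP. Cacng5 (ENSMUSG00000040373, chromosome 11, 107874605 to 107915055) had 26.1, 21.2 and 25.4 CPM in the E2 libraries, against 41.1, 41.2, 46.5 and 41.3 CPM in the GDX libraries. The groups did not overlap, and the mean was 24.2 ± 2.67 CPM in E2 and 42.5 ± 2.65 CPM in GDX, −0.81 ± 0.11 on the log2 scale (adjusted p = 0.00081). This call was made under each of the 13 alternatives run, also with the non-neuronal score as a covariate (−0.90, adjusted p = 0.00604, in a range of 5.58e-10 to 0.00722). The astrocyte sum was also lower in E2 (480 to 564 CPM in E2, 698 to 2557 CPM in GDX), and its part in the result was otherwise not tested.

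Cacng2 (ENSMUSG00000019146, chromosome 15, 77991748 to 78120028) had 73.7, 80.9 and 75.6 CPM in the E2 libraries, against 59.9, 62.0, 65.3 and 58.7 CPM in the GDX libraries. Each E2 library was above each GDX library, and the log2 fold change was 0.32 ± 0.08 (adjusted p = 0.0449). The call was lost under 10 of 13 alternatives, among them without any 1 of the E2 replicates or GDX replicates 1, 2 or 4 (adjusted p = 0.0565 to 0.212). Cacng2 also shares 323 bp of exon with A730060N03Rik on the opposite strand (3.67 CPM in E2, 2.28 CPM in GDX), so a small part of its counts is uncertain. The ratio of Cacng2 to Cacng5 counts was 2.82, 3.82 and 2.98 in the E2 libraries, against 1.46, 1.51, 1.40 and 1.42 in the GDX libraries. That ratio likewise combines opposite differences already given.

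Cacng4, another type I TARP gene, had 74.9, 79.7 and 77.5 CPM in the E2 libraries, against 69.3, 69.1, 67.1 and 65.5 CPM in the GDX libraries. The groups did not overlap, and the test was not passed, with a log2 fold change of 0.19 ± 0.07 at an adjusted p of 0.202. Cacng7, a type II TARP gene, had the highest level per length of the class, 25.8 ± 1.49 CPM per kb in E2 and 27.3 ± 4.83 in GDX. Its libraries held 60.5, 67.2 and 61.5 CPM in E2, against 70.8, 77.3, 68.4 and 49.8 CPM in GDX. GDX replicate 4 was below all E2 libraries and the other GDX libraries above them, and the log2 fold change was −0.08 ± 0.13 (adjusted p = 0.843). Cacng8 (53.6 ± 8.86 CPM in E2, 45.9 ± 3.76 CPM in GDX) and Cacng3 (15.5 ± 3.16 CPM in E2, 12.5 ± 2.84 CPM in GDX), both type I TARP genes, had overlapping groups and did not pass.

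**Figure D3:**
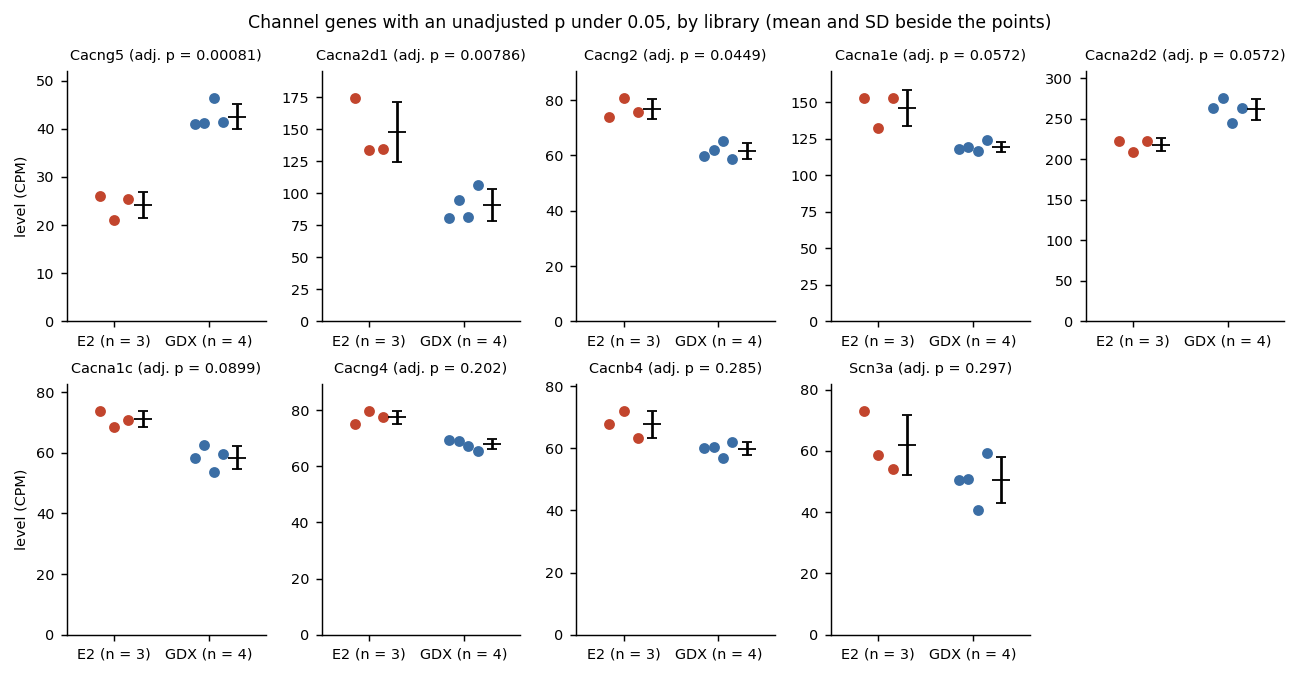
Level in CPM per library for 9 channel genes with an unadjusted p under 0.05, E2 (n = 3) left of GDX (n = 4), with the mean and SD beside the points and axes from 0. The groups overlap for Scn3a and for no other gene drawn, and Cacng5 and Cacna2d2 are lower in E2.

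Scn2a led the sodium channel pores. It encodes a pore of the proximal axon initial segment and had 14.4 ± 1.49 CPM per kb in E2 and 12.8 ± 1.75 in GDX, 35.2% and 35.1% of the class. Its libraries held 195, 161 and 193 CPM in E2, against 164, 165, 134 and 189 CPM in GDX. The groups overlapped, with a log2 fold change of 0.17 ± 0.11 (adjusted p = 0.511). Scn8a, a pore gene of the distal initial segment and nodes of Ranvier, had 6.19 CPM per kb in E2 and 5.49 in GDX, Scn1a had 4.94 in E2 and 4.61 in GDX, and Scn9a, known from pain-sensing neurons, had 3.12 in E2 and 3.59 in GDX. None of these 3 passed.

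Scn3a, a pore gene prominent in the embryonic brain, had 73.1, 58.8 and 54.2 CPM in the E2 libraries, against 50.6, 51.0, 40.8 and 59.5 CPM in the GDX libraries. GDX replicate 4 exceeded 2 of the 3 E2 libraries, and the test was not passed, with a log2 fold change of 0.30 ± 0.13 at an adjusted p of 0.297. Scn3a and Scn2a share sequence, with 6.49% of the distinct 50-base stretches of Scn3a transcripts and 5.73% of those of Scn2a found in another gene, mainly in each other. Scn10a, a gene of sensory neurons, held 0.365 CPM in E2 and 0.295 CPM in GDX. Scn7a, whose product Nax senses sodium in the circumventricular organs, had 3.37 ± 1.72 CPM in E2 and 6.09 ± 3.21 CPM in GDX. It was highest in GDX replicate 4 (10.5 CPM), the library with the highest astrocyte sum. In GDX replicate 1, also high in Gfap (1323 CPM), it had 5.64 CPM, near the 5.41 CPM of GDX replicate 3 (Gfap 356 CPM). The groups overlapped for Scn7a, and whether RNA of other cells had a part was not tested. Scn11a, also known from sensory neurons, had 1.75 ± 0.377 CPM in E2 and 2.89 ± 0.996 CPM in GDX, also without a call.

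The sodium beta genes had the highest summed level per length, and none was called. Scn2b, whose product is a beta subunit linked to the pore by a disulfide bond, had 222 ± 6.40 CPM in E2 and 216 ± 4.52 CPM in GDX, and Scn3b had 126 ± 1.67 CPM in E2 and 129.9 ± 7.53 CPM in GDX. Their log2 fold changes were 0.04 ± 0.06 and −0.05 ± 0.07. Scn4b, whose product is linked to resurgent sodium current in cerebellar Purkinje cells, was low, with 7.03 ± 1.49 CPM in E2 and 6.74 ± 1.61 CPM in GDX.

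**Figure D4:**
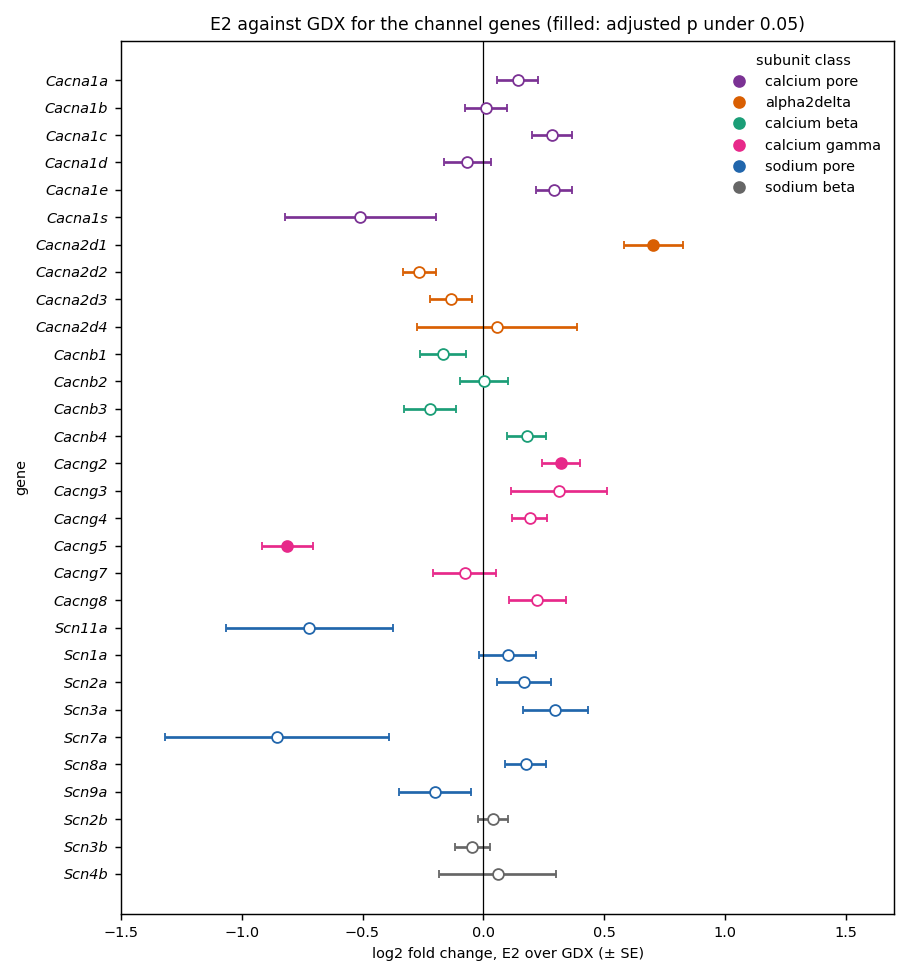
Log2 fold change, E2 over GDX, with its standard error for 30 of the 33 tested channel genes, coloured by class and filled where the adjusted p was under 0.05. Cacna2d1 (0.70) and Cacng2 (0.32) are filled to the right of 0 and Cacng5 (−0.81) to the left; Scn10a (0.29 ± 1.01) is not drawn.

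Of 32 genes of proteins that bind, place or modify these channels, all were tested, 3 rose, 1 fell and 28 did not pass. The list was chosen with earlier results of these data known. The share of 12.5% called, beside 3.88% of all tested genes, is thus a description only. The median log2 fold change of the list was 0.085. Those described here are a pair of small inhibitors of calcium channels and a sodium channel partner. Gem (chromosome 4, 11704457 to 11714752) encodes an RGK protein, a small GTP-binding protein that blocks high-voltage calcium channels through the beta subunit. It had 24.8, 22.9 and 20.9 CPM in the E2 libraries, against 4.53, 5.199, 4.01 and 6.31 CPM in the GDX libraries. All E2 libraries were far above all GDX libraries, with a log2 fold change of 2.19 ± 0.17 (adjusted p = 1.79e-05).

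Rrad (chromosome 8, 104628070 to 104631327), a second RGK gene, went the other way, with 6.53, 4.68 and 6.14 CPM in the E2 libraries, against 11.7, 12.7, 13.3 and 13.4 CPM in the GDX libraries. The groups did not overlap, and the log2 fold change was −1.14 ± 0.17 (adjusted p = 0.00223). Rrad shares 141 bp of exon with Gm33023 on the opposite strand (0.0638 CPM in E2, 0.463 CPM in GDX). Rem2 had 10.5 CPM in E2 and 6.11 CPM in GDX and did not pass (adjusted p = 0.0562), and Rem1 was at 0.437 CPM in E2 and 0.776 CPM in GDX.

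Fgf12 (chromosome 16, 28160098 to 28753068), whose product binds the tail of sodium channel pores inside the cell, had 110.2, 110 and 121 CPM in the E2 libraries, against 87.6, 89.5, 86.7 and 83.1 CPM in the GDX libraries. It rose by a log2 fold change of 0.39 ± 0.07 (adjusted p = 0.00986), a call lost without E2 replicate 3 (0.0654) and with the non-neuronal score as a covariate (0.122), with 0.000114 as the lowest value over the alternatives. Its relatives Fgf11, Fgf13 and Fgf14 had log2 fold changes of 0.16, 0.12 and 0.30 and did not pass. These uncalled relatives are named after their values were seen. Neither the 5 axon initial segment and adhesion genes nor the 5 active zone genes of the list held a call.

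**Figure D5:**
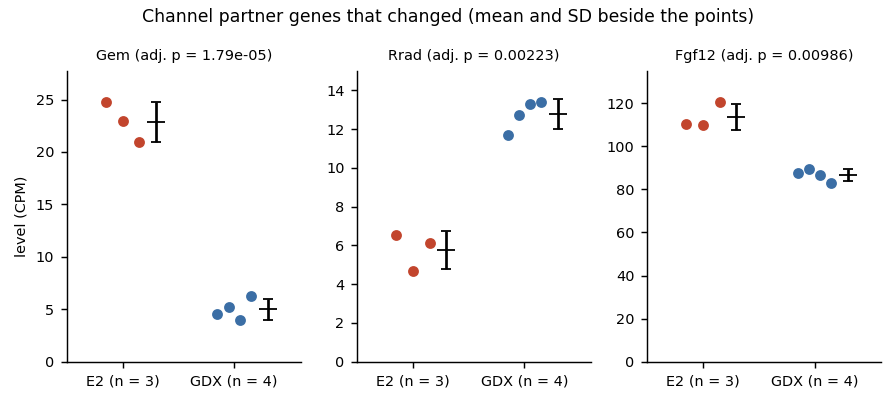
Level in CPM per library for 3 channel partner genes that passed the test, E2 (n = 3) left of GDX (n = 4), with the mean and SD beside the points and axes from 0. For Gem and Fgf12 all E2 points lie above all GDX points, and for Rrad all lie below.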

How the data were processed

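Ribosome-bound polyadenylated RNA was sequenced without strand information in 7 libraries. The authors deposited one table of expected counts per gene, where 33.1% of the values above 0 are fractional. The submitters' processing notes name Trimmomatic 0.38, STAR 2.6.0a, RSEM 1.3.0 and the build mm10, without roles or order, and no annotation is given in the sources used here. GENCODE vM21 (GRCm38) held 55203 of the 55384 identifiers.

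The expected counts were rounded for edgeR 4.0.16 in R 4.3.3. filterByExpr (minimum count 10, minimum total 15) kept 18282 genes. E2 was compared with GDX by the quasi-likelihood test with TMM factors and robust dispersions, with Benjamini-Hochberg adjustment over all genes tested; the script was tested on simulated data. Levels are CPM on TMM-scaled library sizes. Log2 fold changes are E2 over GDX with a prior count of 0.125. Their standard error is the absolute log2 fold change divided by the square root of the test's F statistic. It thus comes from the same test as the p-value and is not a separate measure. To compare genes, CPM was divided by merged exon length.

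Named with all library values were genes called, those with an unadjusted p under 0.05 and the leading gene of each class per length, and partner genes where called. Alternatives were DESeq2 size factors, library sizes alone, no filter, the DESeq2 1.42.0 Wald test, the replicate number as a block, a non-neuronal score as a covariate (prior count 2), each library left out, and the longest coding transcript as length. The genes and lists were chosen with earlier results of these data known. Some genes counted in the totals are not reported here by name.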

Additional observations from a re-analysis of the deposited data

Results flagged for a closer look

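In the 4 GDX libraries, 1 library stood apart by the gap to its nearest neighbour for 2 of 39 sets of values checked (33 genes and 6 class sums), where chance gives about 1 in 20. Cacng5 was at 46.5 CPM in GDX replicate 3, against 41.1 to 41.3 CPM in the other GDX libraries, and the fall of Cacng5 in E2 was called without that library too (log2 fold change −0.76, adjusted p = 0.00245). Scn1a was at 41.8 CPM in GDX replicate 3, against 54.4 to 54.9 CPM in the other GDX libraries.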

How the results depend on the processing

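Over all genes, 467 rose and 243 fell. These counts were 722 and 887 without a low-count filter, 228 and 101 with the non-neuronal score as a covariate, and 268 to 591 and 96 to 428 with 1 library left out, and the DESeq2 Wald test gave 725 falls beside 675 rises. Among the channel genes, 3 rose and 1 fell, against 1 and 2 with library sizes alone, 5 and 2 with the DESeq2 Wald test, 4 and 3 without a filter, 0 and 1 with the covariate, and 1 to 3 and 1 to 2 with 1 library left out. Cacna2d2 passed, in the direction of a fall, with library sizes alone, without a filter and with DESeq2 (adjusted p = 0.0216, 0.0391 and 0.00789). Without a filter Cacna1e and Scn7a passed too, and with DESeq2 Cacna1e and Cacna1c. Partner genes higher in E2 numbered 5 with DESeq2 and 2 to 4 with 1 library left out, with 1 lower in each of these fits. The cause of these shifts was not tested.

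No sign that the replicate number pairs the libraries was seen, in a check of 3 pairs only. Deviations from the group means correlated at −0.0555 to −0.0205 between same-numbered libraries and at −0.0574 to 0.0424 between E2 and GDX libraries of unlike number. Of the 3 E2 libraries, 0 were closest to their own number. With the replicate number as a block, 421 genes rose and 191 fell, and 519 of the 612 were also called without it. GDX replicate 4 has no E2 library of its number, so it did not enter the E2 estimates of that fit. Among the channel genes 1 rose (Cacna2d1) and 1 fell (Cacng5).

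Genes near 0 changed sign. The log2 fold change of Cacna1b was −0.0496 with library sizes alone, −0.0827 with the covariate, and −0.0359 to 0.0757 with 1 library left out. That of Cacng7 was −0.19 to 0.00120 with 1 library left out.

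Measured per length of the longest coding transcript, the shares over all libraries were 31.8% for Cacna1b in place of 41.0%, 54.5% for Cacna2d2 in place of 63.4%, 38.1% for Scn2a in place of 35.1% and 38.7% for Cacnb1 in place of 42.1%, which put Cacnb3 (41.9%) first in its class. Below the leading genes, Cacna1a had 29.3% in place of 26.8%, which put it close to Cacna1b. Cacna2d3 had 24.5% in place of 16.5%, which put it above Cacna2d1 (20.2% in place of 19.3%). Cacnb2 had 10.6% in place of 4.59%, above Cacnb4 (8.87% in place of 11.8%). The order of genes per length thus depends on the length used. At this depth, genes under a few CPM such as Scn10a had wide errors.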
